A study of Mus musculus with 21 samples.

Results

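The genes described here were 10 markers of the nephron beyond the proximal tubule, chosen by the segment in which each is known to act. They were Umod, Slc12a1 and Kcnj1 of the thick ascending limb, Slc12a3 and Calb1 of the distal convoluted tubule, and Aqp2, Aqp3, Hsd11b2, Slc4a1 and Cldn8 of the collecting duct, out of 54123 genes with estimated counts. RNA-Seq was performed on polymorphonuclear neutrophils (PMNs) from blood and on renal tubular epithelial cells (TECs) from kidney of wildtype C57BL/6 male young adult mice, 24 hours after surgery. The surgery was either renal ischemia-reperfusion injury (IRI), a clamping of the renal pedicles followed by release, or a sham operation without clamps. Before it, the mice underwent remote ischemic preconditioning (RIPC), in which a cuff around the hind limb was inflated repeatedly, or a control procedure at a pressure that left the limb perfused. The 21 libraries formed 8 groups, which were PMN sham control (n = 2), PMN sham RIPC (n = 3), PMN IRI control (n = 2), PMN IRI RIPC (n = 3), TEC sham control (n = 3), TEC sham RIPC (n = 3), TEC IRI control (n = 2) and TEC IRI RIPC (n = 3). All mice were wildtype, and no transgene or deletion was carried by any group. The labels do not say whether each library came from 1 mouse, so the p-values measure the spread between these libraries.

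The nephron returns most filtered salt and water in its proximal tubule, and the segments beyond it adjust what is left. The thick ascending limb moves salt without water, the distal convoluted tubule takes up sodium chloride and calcium, and the collecting duct tunes water, potassium and acid under vasopressin and aldosterone. Neutrophils are not known for these transport functions, and the levels of the same genes in the blood libraries were therefore compared as well.

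The thick limb and distal convoluted tubule lie in the cortex and outer medulla, close to the proximal tubule that the TEC isolation was aimed at. TEC libraries carried the markers of that cell, since all 12 genes of a proximal tubule list had more than 3 reads in every sham library and their summed level was 9410 to 17600 CPM, where CPM is the read count scaled to a common, TMM-normalized library size. In PMN libraries the 10 neutrophil genes summed to 6040 to 32300 CPM, against 1.62 to 89.3 CPM in TECs. Ly6g, Retnlg, Camp and Ltf did not exceed 3 reads in any sham TEC library, while the other 6 did in at least 1. In IRI TECs 8 of the 10 exceeded 3 reads in at least 1 library, all but Camp and Ngp. Cxcr2 had a median of 24.8 CPM in TECs and 412 CPM in PMNs. Of 7 macrophage genes, the sum was 831 to 8960 CPM in PMNs and 3.09 to 32.9 CPM in TECs, so the PMN libraries also held transcripts of another myeloid type. The proximal list itself summed to 573 to 11400 CPM in PMN libraries, with at least 10 of its 12 genes above 3 reads in every library of each surgery. Total reads per library were between 20881334 and 51624602, and a count of 3 reads, taken as what a count of 0 allows, was 0.144 CPM of total reads in the shallowest library. PMN sham control replicate 2 stood apart, as it held the highest level among PMN libraries for 6 of the 10 genes, and the fold changes and medians it moved most are also given without it.

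The promoters of 6 of the 10 genes were found in RefSeq on build GRCm38.p6, each as the 250 bases before and the 50 bases after the gene's start in RefSeq. Those of the thick limb genes with reads in every library, Umod and Slc12a1, and of the genes with the smallest p-values between IRI and sham TECs, Slc12a3 and Aqp3, are shown 5′ to 3′ on the gene's own strand. Capitals mark 3 motifs searched on both strands, which were GTTAAT and TTAATNATT, both parts of the site bound by the kidney factor HNF1, and TATAAA.
Umod, chr7:119479213-119479512, minus strand: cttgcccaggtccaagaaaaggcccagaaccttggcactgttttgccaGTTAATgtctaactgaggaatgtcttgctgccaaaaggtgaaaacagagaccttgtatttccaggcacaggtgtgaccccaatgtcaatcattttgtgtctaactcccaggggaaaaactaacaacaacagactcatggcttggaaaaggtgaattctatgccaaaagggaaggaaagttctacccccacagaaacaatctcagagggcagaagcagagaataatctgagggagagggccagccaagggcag
Slc12a1, chr2:125152350-125152649, plus strand: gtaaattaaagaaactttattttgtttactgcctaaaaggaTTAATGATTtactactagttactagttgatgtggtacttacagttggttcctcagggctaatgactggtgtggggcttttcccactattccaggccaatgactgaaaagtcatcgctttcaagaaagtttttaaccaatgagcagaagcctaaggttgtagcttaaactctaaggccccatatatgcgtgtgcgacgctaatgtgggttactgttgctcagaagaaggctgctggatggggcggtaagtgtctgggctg
Slc12a3, chr8:94328958-94329257, plus strand: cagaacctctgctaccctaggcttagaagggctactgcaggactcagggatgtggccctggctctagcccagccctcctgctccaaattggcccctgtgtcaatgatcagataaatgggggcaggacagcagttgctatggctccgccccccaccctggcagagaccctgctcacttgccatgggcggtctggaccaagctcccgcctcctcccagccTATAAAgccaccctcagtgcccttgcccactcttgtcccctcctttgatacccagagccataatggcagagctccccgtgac
Aqp3, chr4:41098134-41098433, minus strand: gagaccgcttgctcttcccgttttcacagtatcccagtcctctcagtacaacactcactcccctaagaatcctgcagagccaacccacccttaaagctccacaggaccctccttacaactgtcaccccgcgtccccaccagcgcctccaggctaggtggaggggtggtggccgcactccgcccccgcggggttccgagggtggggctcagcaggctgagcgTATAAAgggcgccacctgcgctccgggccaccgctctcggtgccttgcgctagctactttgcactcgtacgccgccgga

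GTTAAT was present in the Umod promoter, and in 7.10% of 32851 promoters of the same length. TTAATNATT was present in that of Slc12a1 and in 1.47% of all, and TATAAA in those of Slc12a3 and Aqp3, starting 32 and 29 bases before the start, and in 13.6% of all. The promoter of Aqp2 held none of the 3 motifs in this window. The window of Kcnj1 lies inside the gene as annotated by Gencode, and its letters are not described. A match describes the letters and not a bound site.

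Umod (ENSMUSG00000030963.6, chr7:119462711-119479282, minus strand of GRCm38) encodes uromodulin, which the thick limb secretes into urine. Per transcript length it had the highest median level of the 10 genes in TECs, 30.2 TPM, and in PMNs its 28.3 TPM was next to the 28.5 TPM of Aqp2. In TECs its level was 977, 165 and 148 CPM in sham control, 165, 414 and 96.7 CPM in sham RIPC, 149 and 589 CPM in IRI control, and 65.7, 168 and 106 CPM in IRI RIPC. In PMNs it was 32.4 and 4460 CPM in sham control, 541, 298 and 127 CPM in sham RIPC, 128 and 160 CPM in IRI control, and 25.5, 41.8 and 452 CPM in IRI RIPC. The ranges of the 2 cell types overlapped after either surgery, and each library had at least 625 reads of the gene. An unnamed gene, Gm44588, overlaps Umod, and without a stated strand the reads of overlapping genes cannot be told apart.

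Slc12a1 (ENSMUSG00000027202.12, chr2:125152505-125230002, plus strand) encodes NKCC2, the cotransporter that loop diuretics block. In sham TECs it was measured at 124, 11.7 and 68.5 CPM in controls and 38.4, 108 and 20.5 CPM after RIPC. In IRI TECs it was 5.62 and 4.81 CPM in controls and 3.39, 47.6 and 8.86 CPM after RIPC, so that all but RIPC replicate 2 were below the lowest sham library. PMN libraries held 9.83 and 429 CPM in sham control, 101, 46.5 and 37.5 CPM in sham RIPC, 14.3 and 0.940 CPM in IRI control, and 0.856, 21.5 and 20.7 CPM in IRI RIPC. The gene overlaps Gm14002, with the same limit on strand.

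Kcnj1 (ENSMUSG00000041248.9, chr9:32372493-32399197, plus strand) encodes ROMK, the apical channel that recycles potassium in the thick limb and secretes it further down. Its levels in sham TECs were 1.86, 31.9 and 23.4 CPM in controls and 16.7, 28.6 and 1.24 CPM after RIPC. After IRI, 4 of 5 TEC libraries had 0 reads, both controls among them, and IRI RIPC replicate 3 had 539 reads or 24.9 CPM. Kcnj1 was unevenly spread in PMNs as well, with 0 and 215 CPM in sham control, 0, 0.182 and 1.35 CPM in sham RIPC, 0 and 9.60 CPM in IRI control, and 0.856, 19.7 and 0 CPM in IRI RIPC.

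Slc12a3 (ENSMUSG00000031766.4, chr8:94329201-94366214, plus strand) encodes NCC, the thiazide-sensitive cotransporter that defines the distal convoluted tubule. Sham TECs held 48.3, 50.8 and 64.7 CPM in controls and 41.8, 68.8 and 16.5 CPM after RIPC. In IRI TECs the values were 0.159 and 0 CPM in controls and 1.46 and 84.3 CPM in RIPC replicates 1 and 2, and RIPC replicate 3 had 13 reads. Thus 4 of 5 IRI libraries were far below all 6 sham libraries, and the fifth, RIPC replicate 2, was above them all. In PMNs the gene was at 24.3 and 44.7 CPM in sham control, 0.594, 0.638 and 47.2 CPM in sham RIPC, 0 and 51.5 CPM in IRI control, and 7.10, 0.267 and 17.1 CPM in IRI RIPC. Transcripts annotated with a retained intron were assigned 35.0% of its estimated reads in TECs and 19.4% in PMNs. Whether these reads came from unspliced RNA was not tested.

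Calb1 (ENSMUSG00000028222.2, chr4:15881264-15908064, plus strand) encodes calbindin, which carries calcium through distal cells. It was present in every TEC library, with 8.10, 24.8 and 26.7 CPM in sham control, 32.9, 35.2 and 16.4 CPM in sham RIPC, 21.8 and 10.4 CPM in IRI control, and 10.0, 15.7 and 21.4 CPM in IRI RIPC. PMNs held 1.14 and 94.3 CPM in sham control, 10.0, 48.4 and 35.9 CPM in sham RIPC, 13.8 and 53.6 CPM in IRI control, and 0, 0 and 0.328 CPM in IRI RIPC. The 3 PMN libraries of IRI RIPC were thus the lowest of all 21.

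Aqp2 (ENSMUSG00000023013.5, chr15:99579055-99584547, plus strand) encodes the water channel that vasopressin inserts in the apical membrane of principal cells. Its median level was 50.5 CPM in PMNs and 14.2 CPM in TECs. PMN libraries held 51.1 and 168 CPM in sham control, 60.6, 90.3 and 34.1 CPM in sham RIPC, 18.4 and 35.2 CPM in IRI control, and 11.9, 49.9 and 110 CPM in IRI RIPC. TECs held 21.1, 12.1 and 14.2 CPM in sham control, 38.7, 17.1 and 10.1 CPM in sham RIPC, 0.957 and 4.35 CPM in IRI control, and 7.62, 42.8 and 69.9 CPM in IRI RIPC. Among TECs both IRI controls were below every other library, and the IRI RIPC group reached above the sham groups. All reads of the gene fell on its only annotated transcript.

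Aqp3 (ENSMUSG00000028435.8, chr4:41092722-41098183, minus strand) encodes the basolateral channel by which water leaves the principal cell. In sham TECs its level was 0.248, 37.1 and 15.9 CPM in controls and 30.8, 47.1 and 21.9 CPM after RIPC, and in IRI TECs 0.239 and 0 CPM in controls and 1.15, 14.1 and 15.5 CPM after RIPC. Sham control replicate 1 was as low as the IRI controls, which made the groups overlap. PMNs ranged from 0 to 58.2 CPM, with 3 libraries at 0 and the highest in IRI control replicate 2.

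Hsd11b2 (ENSMUSG00000031891.6, chr8:105518755-105523988, plus strand) encodes the enzyme that inactivates glucocorticoids and so keeps the mineralocorticoid receptor free for aldosterone. Its level in sham TECs was 1.20, 0.199 and 12.5 CPM in controls and 7.25, 11.1 and 13.2 CPM after RIPC. In IRI TECs it was 0.598 and 0 CPM in controls, and RIPC libraries had 0, 0 and 2 reads. PMN libraries reached 45.0 CPM in sham RIPC replicate 1, and the 3 PMN libraries of IRI RIPC held 4.28, 9.74 and 12.2 CPM, above every TEC library of that surgery.

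Slc4a1 (ENSMUSG00000006574.15, chr11:102348824-102366203, minus strand) encodes the anion exchanger AE1, used by acid-secreting intercalated cells and by red cells. It had more than 3 reads in 7 of 21 libraries, 4 of them TECs, and its highest count, 545 reads, was in TEC sham control replicate 2. That library also held the most Hba-a1 reads of any TEC library, 10325, and 376 reads of Alas2 and 535 of Epb42, all red cell genes. Elsewhere Hba-a1 and Slc4a1 did not go together, as TEC IRI RIPC replicate 1 had 6110 Hba-a1 reads and 13 Slc4a1 reads. In PMNs the counts were 0 and 70 reads in sham control, 0, 2 and 124 reads in sham RIPC, 74 and 0 reads in IRI control, and 0, 0 and 1 read in IRI RIPC. Its main annotated coding transcript took 97.7% of its reads. The part of red cell RNA in its level was not tested.

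Cldn8 (ENSMUSG00000050520.4, chr16:88560828-88563183, minus strand) encodes a tight junction protein of the collecting duct. It was detected in all 5 IRI TEC libraries, at 3.55 and 7.37 CPM in controls and 3.08, 23.9 and 8.86 CPM after RIPC. In sham TECs it was at 2.48, 0 and 5.90 CPM in controls and 0, 0 and 12.5 CPM after RIPC, and in PMNs it ranged from 0 to 13.0 CPM.

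**Figure D1:**
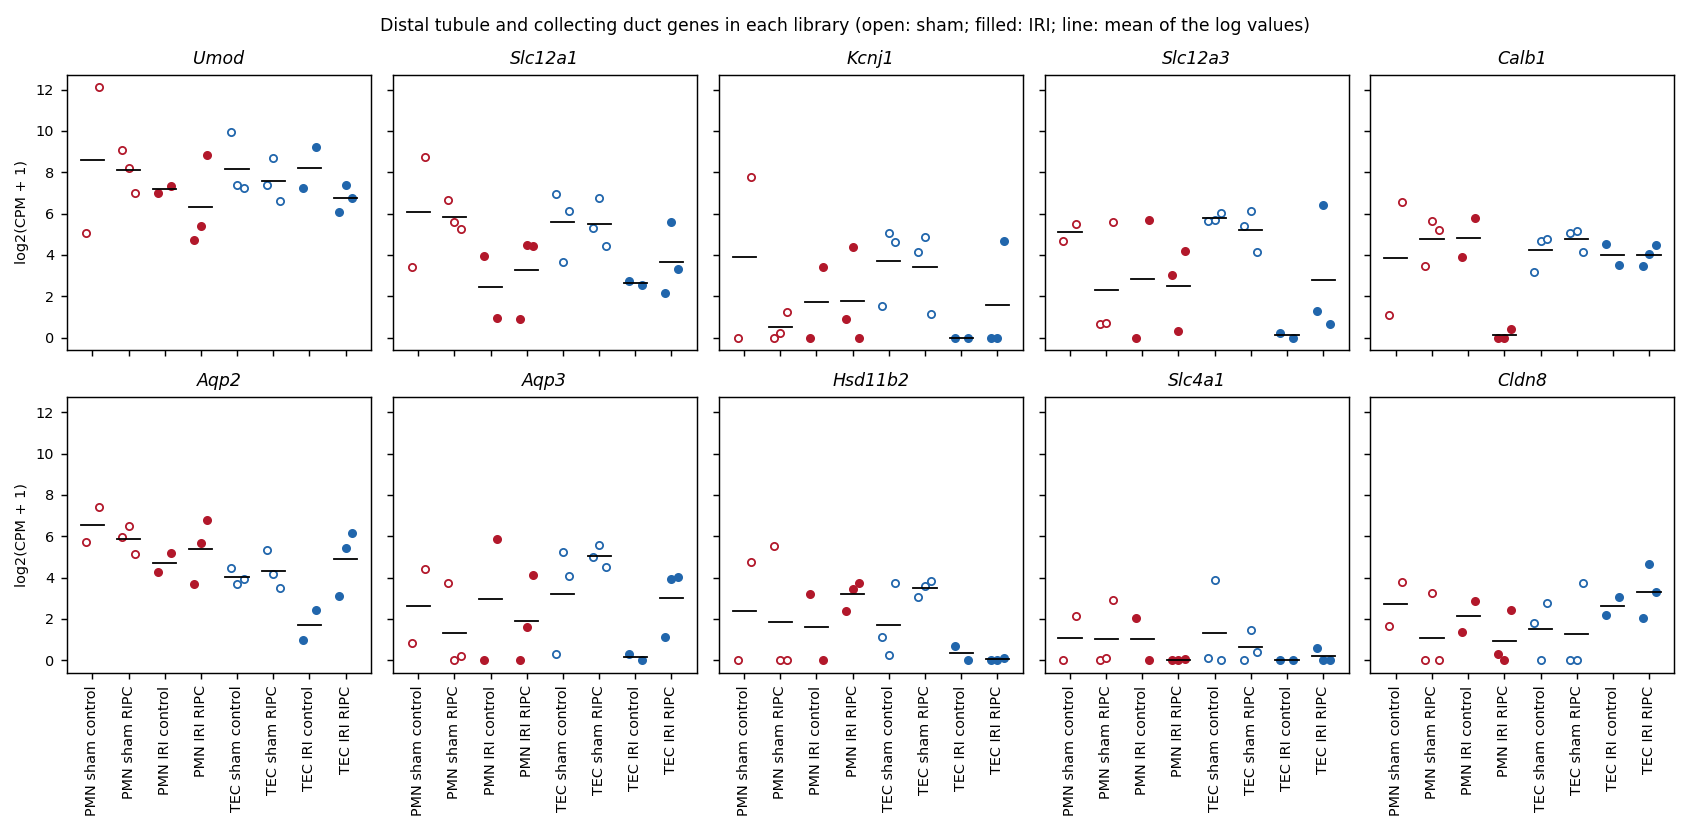
Level of each of the 10 genes in the 21 libraries, as log2(CPM + 1) on the vertical axis, with the 8 groups along the horizontal axis, PMNs in red and TECs in blue, sham libraries open and IRI libraries filled, and lines at the mean of the log values. Kcnj1, Slc12a3 and Aqp3 sit at or near 0 in both TEC IRI control libraries, and Umod and Aqp2 are well above 0 in all PMN libraries.

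Ordered by mean level, the 8 groups of a gene mostly ran into each other. In 7 of the 10 genes each group's range overlapped that of the next in the order. A single step in each of the other genes was free of overlap, and how many of all genes show such a step was not counted. The steps were PMN IRI RIPC above TEC IRI control for Slc12a3, TEC IRI RIPC above PMN IRI RIPC for Calb1, and TEC sham control above TEC IRI control for Aqp2. Umod had PMN sham control, TEC sham control and TEC IRI control highest, and TEC IRI RIPC lowest. PMN sham control was also first for Slc12a1, Kcnj1, Calb1 and Aqp2, in each case through replicate 2. TEC sham groups were first for Slc12a3, Aqp3 and Slc4a1, PMN sham RIPC for Hsd11b2 and TEC IRI RIPC for Cldn8. TEC IRI control was last for Slc12a1, Kcnj1, Slc12a3, Aqp2, Aqp3 and Slc4a1.

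The first comparison asked how IRI TECs differed from sham TECs, averaging the control and RIPC groups on the log scale. By edgeR's quasi-likelihood test none of the 10 genes passed an adjusted p of 0.05, while 1.40% of 25917 genes tested did. Without adjustment, 5 of the 10 genes had a p under 0.05, all lower after IRI, where 8.60% of all genes tested were lower with such a p. DESeq2's Wald test called 4 genes, Aqp3, Slc12a3, Hsd11b2 and Kcnj1, all lower, with 10.2% of its 20416 genes called in either direction. The median log2 fold change of the 10 genes was -3.53, against 0.15 over all genes tested (0.28 with DESeq2's size factors), and 9 of the 10 were below 0. With Kcnj1 and Slc4a1, both at 0 in IRI controls, set at the bound that 3 reads give, the median was -3.43. Leaving out 1 TEC library gave medians of -4.34 to -2.71. In bulk RNA, fewer cells of a type and less RNA per cell cannot be told apart. Marker lists of other cells were summed in the same libraries. The 4 fibroblast genes summed to 5.54 to 31.2 CPM in IRI and 0 to 2.12 CPM in sham TECs, with no overlap. However, none of the 4 exceeded 3 reads in every IRI library. The 10 neutrophil genes summed to 30.8 to 89.3 CPM in IRI and 1.62 to 32.4 CPM in sham TECs. Sums of the 7 macrophage genes were 7.65 to 32.2 CPM after IRI and 3.09 to 32.9 CPM after sham. The median log2 fold change of the 6 macrophage genes tested was -1.30. For 6 endothelial genes the median sum was 142 CPM after IRI and 34.6 CPM after sham, with overlapping ranges, and for 6 lymphocyte genes 19.2 and 6.24 CPM. None of these genes passed the test, and their part in the values of the 10 genes was not tested.

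Among the thick limb genes, Slc12a1 had a log2 fold change of -2.59 (SE 0.84, adjusted p = 0.173 by edgeR), from a mean of 61.9 ± 46.5 CPM (SD, n = 6) in sham to 14.1 ± 18.9 CPM (SD, n = 5) in IRI TECs. For Kcnj1 the fitted value was -6.46 (SE 2.28, adjusted p = 0.220 by edgeR), and it depends on the prior count because IRI controls had no reads. Its reads in sham controls were at least 335-fold higher than 3 reads over both IRI controls would give. Umod stood at -0.62 (SE 0.59, adjusted p = 0.694 by edgeR), with means of 328 ± 337 CPM (SD, n = 6) and 216 ± 212 CPM (SD, n = 5), a difference within the spread. Without TEC sham control replicate 1 the Umod value was 0.09.

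Slc12a3 came closest to the threshold, with -4.93 (SE 1.30, adjusted p = 0.0861 by edgeR) between 48.5 ± 18.7 CPM (SD, n = 6) and 17.3 ± 37.4 CPM (SD, n = 5). The IRI mean rests on RIPC replicate 2, and without it the value was -7.38 with an adjusted p of 0.00393 by edgeR, where 21 edgeR alternatives gave adjusted p-values from 1.15e-05 to 0.967. Calb1, the other gene of that segment, was at -0.61 (SE 0.66, adjusted p = 0.740 by edgeR), from 24.0 ± 10.2 CPM (SD, n = 6) to 15.9 ± 5.70 CPM (SD, n = 5). These markers of 1 segment thus gave unlike fitted values, and the difference between them was not tested.

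Of the collecting duct genes, Aqp3 was at -4.46 (SE 1.33, adjusted p = 0.130 by edgeR) and Hsd11b2 at -6.11 (SE 2.03, adjusted p = 0.186 by edgeR). Slc4a1 had -6.02 (SE 2.87, adjusted p = 0.344 by edgeR), again a value set by the prior count. The red cell list summed to 74.8 to 833 CPM in IRI TECs, with a median of 533 CPM. In sham TECs it summed to 12.3 to 749 CPM, with a median of 26.5 CPM. Aqp2 was at -0.87 (SE 0.75, adjusted p = 0.652 by edgeR), although its mean of 25.1 ± 30.1 CPM (SD, n = 5) after IRI was above the 18.9 ± 10.4 CPM (SD, n = 6) in sham, since the average of logs gives the low IRI controls equal weight. With RIPC groups alone its value was 0.87. Cldn8 was the only one above 0, at 1.24 (SE 1.72, adjusted p = 0.821 by edgeR).

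**Figure D2:**
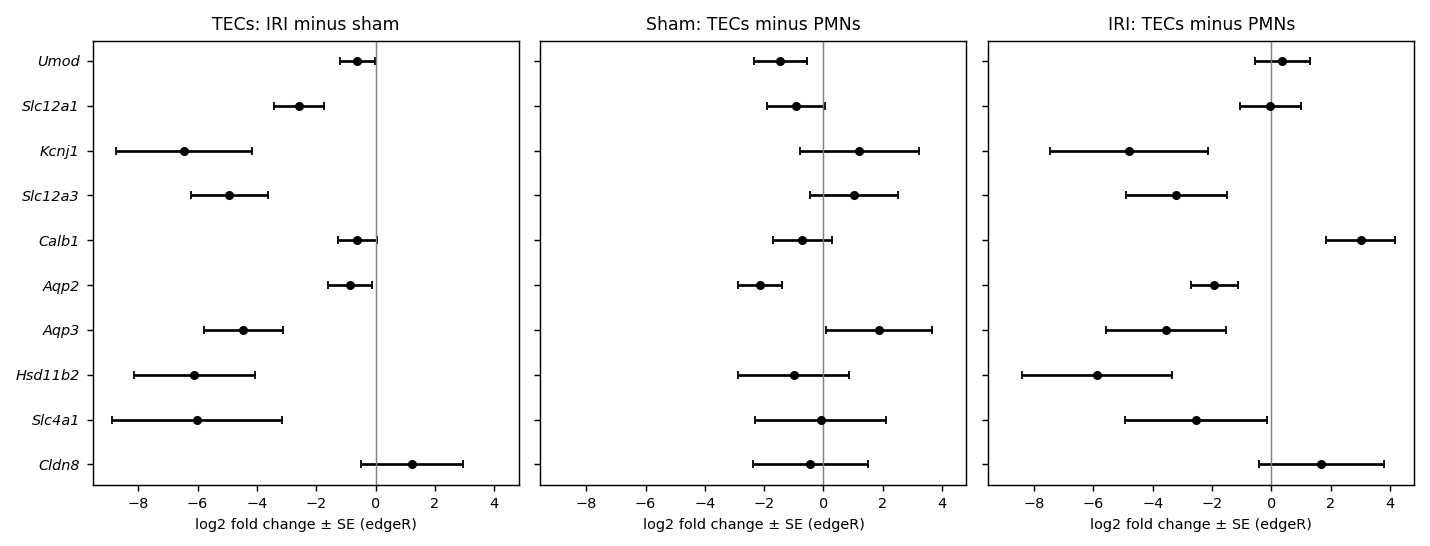
Log2 fold change with its standard error from edgeR for each of the 10 genes, for IRI minus sham in TECs, and for TECs minus PMNs after sham and after IRI. In the first panel 9 of 10 points are below 0, and in the others the points fall on both sides.

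Wider lists of each segment, which share no gene with the 10, held few calls. Of 14 further thick limb genes 12 were tested, none passed, and the median was -0.72. The highest of them in TECs, Cldn10, a tight junction gene, was at 19.5 ± 20.4 CPM (SD, n = 5) after IRI and 210 ± 48.5 CPM (SD, n = 6) after sham, a log2 fold change of -3.51 (SE 1.07, adjusted p = 0.144 by edgeR). The Cldn10 level is summed over its transcripts, and the part from proximal cells was not tested. Of 14 further genes of the distal convoluted tubule 13 were tested and 1 fell, Klhl3, part of the ligase complex that degrades the WNK kinases, at -3.62 (SE 0.82, adjusted p = 0.0436 by edgeR). The median of that list was -0.57. The level of Klhl3 was 12.2 to 75.4 CPM in sham and 1.65 to 4.02 CPM in IRI TECs, with no overlap. None of 13 tested principal cell genes passed, and their median was 0.64. Its highest gene, the aldosterone-induced kinase Sgk1, which other kidney cells also use, was at 672 ± 742 CPM (SD, n = 5) after IRI and 126 ± 125 CPM (SD, n = 6) after sham, a log2 fold change of 2.14 (SE 0.70, adjusted p = 0.178 by edgeR). Of 15 tested intercalated cell genes 1 fell, Atp6v0a4, a proton pump subunit, from 59.3 to 121 CPM in sham to 5.16 to 28.0 CPM in IRI TECs, with -2.61 (SE 0.59, adjusted p = 0.0436 by edgeR). The intercalated cell median was -2.38. Atp6v0a4 and Car2 of that list are also used by proximal cells. For comparison, 6 of 12 proximal tubule genes fell, with a median of -2.22.

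**Figure D3:**
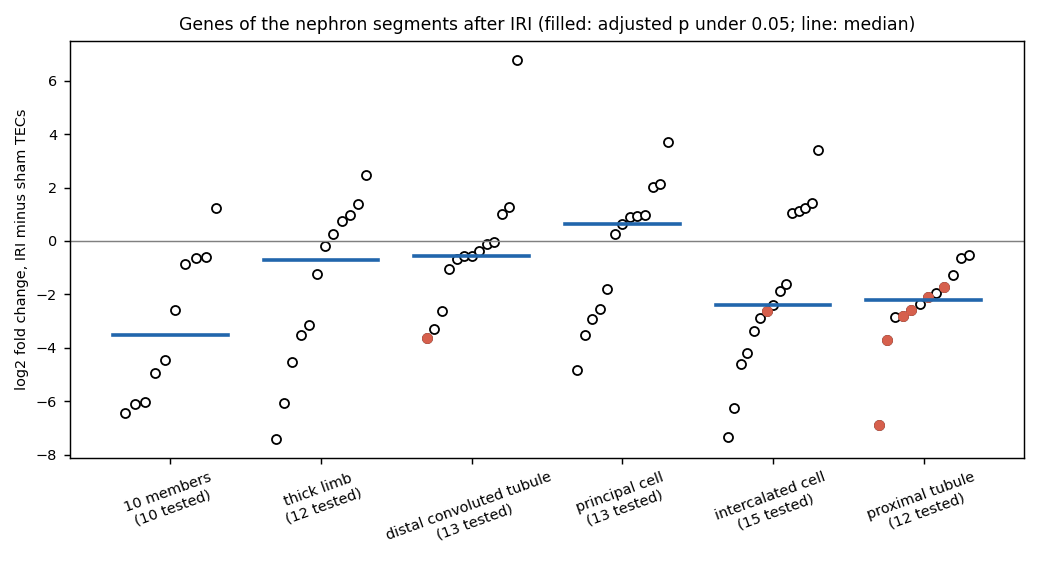
Log2 fold change between IRI and sham TECs for the 10 genes and for the wider lists of each nephron segment, 1 point per tested gene, filled where the adjusted p was under 0.05, with a line at the median. The 10 genes have the lowest median, -3.53, with no filled point, and the proximal tubule list has 6 filled points around a median of -2.22.

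The next question was whether these genes differed between RIPC and control. After sham surgery it gave no call in TECs. No gene of all tested passed in edgeR, a background of 0%, none of the 10 had an unadjusted p under 0.05 against 4.53% of all genes, and DESeq2 called none of them and 1.92% of its genes. The smallest p belonged to Umod, with a log2 fold change of -0.94 (SE 0.79, adjusted p = 0.954 by edgeR) that turned to 0.42 without sham control replicate 1. The median of the 10 genes was 0.08, or -0.33 to 0.31 with 1 library left out, and that of all genes 0.21.

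After IRI, no member was called between RIPC and control TECs by edgeR, where 0.00386% of genes were. Yet 4 of the 10, Slc12a3, Aqp2, Aqp3 and Kcnj1, had an unadjusted p under 0.05 and were higher after RIPC, compared with 1.72% of all genes. DESeq2's Wald test called the same 4 genes, with 3.29% of its genes called. With apeglm and an s value under 0.01 DESeq2 called Aqp2 among the 10, and 219 of 39528 genes in all. For 3 of the 4 genes, Slc12a3, Aqp2 and Aqp3, all 3 RIPC libraries were above both controls. The 4 genes were picked by p from the same values, so this separation adds no support to their p-values. How many of all genes separate these small groups in that way was not counted. The smallest p was that of Slc12a3, whose log2 fold change was 8.46 (SE 2.30, adjusted p = 0.778 by edgeR). It was 3.57 without IRI RIPC replicate 2, the library with 84.3 CPM. Kcnj1 was at least 118-fold higher in the RIPC group than the 3 reads that a count of 0 allows over both controls, and that rests on the 539 reads of replicate 3 alone. The median of the 10 genes was 2.96, or 1.75 with Kcnj1 and Slc4a1 at their bounds, and that of all genes 0.15.

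The interaction of RIPC and surgery asked whether the RIPC difference was larger after IRI than after sham. No gene passed in edgeR, so its background was 0%. Those 4 genes had a positive interaction with an unadjusted p under 0.05, as had 2.96% of all genes. DESeq2 called Slc12a3 and Kcnj1, and 2.66% of its genes. Slc12a3 had the smallest p, with an interaction of 8.85 on the log2 scale (SE 2.54, adjusted p = 0.689 by edgeR), or 3.96 without IRI RIPC replicate 2. The TEC IRI control libraries (n = 2) enter this interaction, the RIPC difference after IRI and the difference between IRI and sham TECs. These results are therefore not independent of each other.

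In PMNs the question was whether the amount of these transcripts followed surgery. PMN libraries after IRI were not called for any of the 10 genes by edgeR, where 0.416% of 25002 genes were. Slc12a1 and Calb1 were lower with an unadjusted p under 0.05, as were 4.98% of all genes, and DESeq2 called none of the 6 genes to which it gave an adjusted p and 7.57% of all. Calb1 had the smallest p, with a log2 fold change of -4.31 (SE 1.57, adjusted p = 0.390 by edgeR) between 37.9 ± 36.8 CPM (SD, n = 5) in sham and 13.6 ± 23.2 CPM (SD, n = 5) in IRI PMNs. Without PMN sham control replicate 2 the Calb1 value was -1.56, with a sham mean of 23.9 ± 22.0 CPM (SD, n = 4), and without IRI RIPC replicate 3 it was -6.50. The median of the 10 genes was -1.16, or 0.36 without PMN sham control replicate 2, and that of all genes was -0.01. Over the same libraries the median of the 12 proximal tubule genes was -2.41, none of them called, and that of the 7 macrophage genes -1.71.

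RIPC after sham surgery gave no call among the 10 genes in PMNs, where edgeR called 0.00400% of genes. None of the 10 had an unadjusted p under 0.05, against 4.60% of all, and DESeq2 called none of the 6 with an adjusted p and 4.16% of all. Kcnj1 had the smallest p, at -7.75 (SE 3.93, adjusted p = 0.705 by edgeR), and this value became 6.53 without PMN sham control replicate 2, which held all 4485 reads of its group.

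Between RIPC and control after IRI, edgeR called 0% of genes in PMNs, and of the 10 genes Calb1 alone had an unadjusted p under 0.05, as had 2.72% of all. DESeq2 called it too, with 1.80% of its genes. Calb1 was lower in all 3 RIPC libraries than in both controls, a separation not counted over all genes, with a log2 fold change of -8.23 (SE 2.37, adjusted p = 0.920 by edgeR). Its interaction of RIPC and surgery was -7.60 (SE 3.06, adjusted p = 0.719 by edgeR), or -12.99 without sham control replicate 2, the only one of the 10 with an unadjusted p under 0.05. For that interaction edgeR called 0% of genes, 5.74% had an unadjusted p under 0.05, and DESeq2 called none of the 6 with an adjusted p and 3.31% of all.

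The last comparison set TECs against PMNs, to show how much the blood libraries held of kidney transcripts. More than 3 reads of Umod, Slc12a1 and Aqp2 were present in all 10 PMN libraries, of Slc12a3 in 9, of Calb1 in 8, of Cldn8 in 7, of Kcnj1, Aqp3 and Hsd11b2 in 6 each, and of Slc4a1 in 3. In TECs these numbers were 11 of 11 for Umod, Slc12a1, Calb1 and Aqp2, 10 for Slc12a3 and Aqp3, 8 for Cldn8, 7 for Kcnj1 and Hsd11b2, and 4 for Slc4a1. Every PMN library had at least 7 of the 10 genes above 3 reads.

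After sham surgery, edgeR called none of the 10 genes between TECs and PMNs, and 2.62% of 31769 genes. One had an unadjusted p under 0.05, against 17.5% of all, and DESeq2 called that gene, Aqp2, with 21.4% of its genes called. Aqp2 was lower in TECs, with a log2 fold change of -2.14 (SE 0.74, adjusted p = 0.142 by edgeR) and means of 18.9 ± 10.4 CPM (SD, n = 6) in TECs and 80.9 ± 52.9 CPM (SD, n = 5) in PMNs. Without PMN sham control replicate 2 the PMN mean was 59.0 ± 23.6 CPM (SD, n = 4). The thick limb genes gave -1.45 for Umod (SE 0.88, adjusted p = 0.393 by edgeR), -0.92 for Slc12a1 (SE 0.97, adjusted p = 0.715 by edgeR) and 1.21 for Kcnj1 (SE 2.01, adjusted p = 0.909 by edgeR). Without that PMN library Umod and Slc12a1 were on the other side, at 1.65 and 1.36, and Kcnj1 was at 8.50. Slc12a3 was at 1.03 (SE 1.48, adjusted p = 0.852 by edgeR) and Calb1 at -0.71 (SE 1.00, adjusted p = 0.843 by edgeR), or 2.05 without the library. For the remaining collecting duct genes the values were 1.87 for Aqp3 (SE 1.80, adjusted p = 0.661 by edgeR), -1.01 for Hsd11b2 (SE 1.86, adjusted p = 0.942 by edgeR) and -0.44 for Cldn8 (SE 1.93, adjusted p = 1.000 by edgeR). Slc4a1 was at -0.10 (SE 2.21, adjusted p = 1.000 by edgeR), which turned above 0 with DESeq2's size factors. Without PMN sham control replicate 2 these were 3.82 for Aqp3, 4.69 for Hsd11b2, 0.45 for Cldn8 and 4.25 for Slc4a1.

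After IRI the 10 genes were again without a call in edgeR, which called 2.67% of all genes. Unadjusted p-values under 0.05 were found for Aqp2 and Hsd11b2, lower in TECs, and for Calb1, higher in TECs, compared with 14.5% of all genes, and DESeq2 called these and Kcnj1, with 16.9% of its genes. Calb1 was at 3.01 (SE 1.16, adjusted p = 0.235 by edgeR), Aqp2 at -1.92 (SE 0.80, adjusted p = 0.278 by edgeR) and Hsd11b2 at -5.87 (SE 2.53, adjusted p = 0.300 by edgeR). The Hsd11b2 value was -1.07 without PMN IRI control replicate 1 and -8.80 without TEC IRI control replicate 1, and that of Calb1 was 5.26 without PMN IRI RIPC replicate 3. Calb1 rests on the low IRI RIPC libraries of PMNs, as its means, 15.9 CPM in TECs and 13.6 CPM in PMNs, were nearly the same. Kcnj1 was at -4.80 (SE 2.65, adjusted p = 0.421 by edgeR), Slc12a3 at -3.20 (SE 1.70, adjusted p = 0.394 by edgeR) and Aqp3 at -3.56 (SE 2.02, adjusted p = 0.437 by edgeR). All 3 were above 0 without PMN IRI control replicate 2, at 0.16, 2.94 and 2.68. Umod was at 0.37 (SE 0.92, adjusted p = 1.000 by edgeR), Slc12a1 at -0.04 (SE 1.03, adjusted p = 1.000 by edgeR), Slc4a1 at -2.54 (SE 2.40, adjusted p = 0.774 by edgeR) and Cldn8 at 1.69 (SE 2.10, adjusted p = 0.917 by edgeR).

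The wider lists gave 2 calls in these comparisons, both among distal convoluted tubule genes after IRI. Fxyd2, the gamma subunit of the sodium pump, which proximal cells also use, was higher in TECs, at 1760 ± 246 CPM (SD, n = 5) against 152 ± 70.1 CPM (SD, n = 5), with a log2 fold change of 3.61 (SE 0.51, adjusted p = 4.15e-04 by edgeR). Wnk1, a kinase made in most cells, was lower, at -2.46 (SE 0.65, adjusted p = 0.0443 by edgeR). Of the proximal list, 4 of 12 genes were called after sham and 5 after IRI, all higher in TECs, and the medians of that list were 2.63 and 2.87. The medians of the 10 genes were -0.58 after sham and -2.23 after IRI, and those of all genes 0.00 and 0.07. Both medians of the 10 genes depend on single PMN libraries. After sham the median was 1.85 without sham control replicate 2. After IRI it was -0.42 without IRI control replicate 1 and 0.31 without IRI control replicate 2.

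The balance of distal to proximal transcripts was described as a ratio within each library. On the TPM scale, which allows levels of genes to be summed, the 10 genes amounted to 0.890% to 5.15% of the proximal list in TECs (n = 11) and to 2.32% to 34.2% in PMNs (n = 10). Aqp2 alone, relative to the proximal phosphate transporter Slc34a1, was at 0.730% to 2.56% in sham TECs and at 24.9% to 129% in sham PMNs, with no overlap. The same ratio for Umod was 2.20% to 35.6% in sham TECs and 28.5% to 310% in sham PMNs, and these ranges overlapped. Slc34a1 itself differed, with group means of 3960 and 4300 CPM in sham TECs and 671 and 473 CPM in sham PMNs. After IRI the Aqp2 ratio was at 0.310% to 29.5% in TECs and 21.8% to 279% in PMNs, where TEC IRI RIPC replicate 2 was above the lowest PMN library. These ratios were computed after the values had been seen and were not tested. PMN sham control replicate 2 had the highest sum of both kinds, with 1060 TPM for the 10 genes and 8560 TPM for the proximal list.

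**Figure D4:**
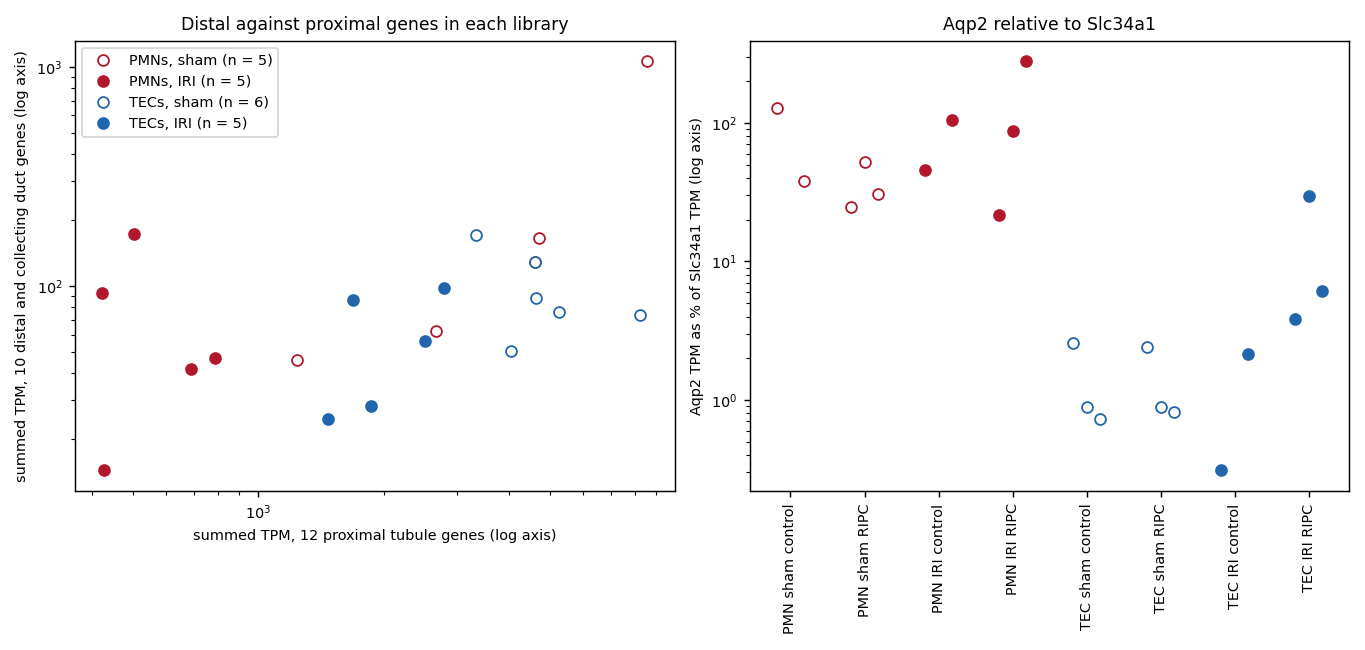
Left, summed TPM of the 10 genes against summed TPM of 12 proximal tubule genes in each library, both on log axes. Right, Aqp2 as a percentage of Slc34a1, both in TPM, in each library of the 8 groups on a log axis, where the sham PMN libraries lie at 24.9% or above and the sham TEC libraries at 2.56% or below.

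A contrast of contrasts, IRI against sham in TECs minus the same in PMNs, was added after the values had been seen. By edgeR 0% of genes passed. Of the 10, Calb1 had an unadjusted p under 0.05, as had 9.76% of all, with a difference of 3.72 (SE 1.50, adjusted p = 0.391 by edgeR). It was 0.90 without PMN sham control replicate 2 and 5.97 without PMN IRI RIPC replicate 3. DESeq2 called Kcnj1, with 10.9% of its genes called.

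Genes whose levels ran most like a member over the 11 TEC libraries were picked by Pearson's r of log2(CPM + 1), up to 2 per member, as a description. For Slc12a3 they were Syn3 (r = 0.965) and Snrnp25 (r = 0.950), for Kcnj1 Gm16861 (r = 0.973) and Hnrnpa2b1 (r = 0.964), and for Slc12a1 Gm43323 (r = 0.947) and Gm15962 (r = 0.934). Umod went with Gm10812 (r = 0.930) and Gm42619 (r = 0.922), Calb1 with Hnrnpul2 (r = 0.940) and Cln8 (r = 0.931), and Aqp2 with Ankrd28 (r = 0.882) and Abhd3 (r = 0.878). Aqp3 went with 1110002L01Rik (r = 0.942), Hsd11b2 with Ugt1a2 (r = 0.973) and Gm17597 (r = 0.972), Slc4a1 with C230037L18Rik (r = 0.984) and Rgs19 (r = 0.981), and Cldn8 with Gm15541 (r = 0.918) and Speer4e (r = 0.916). None of these genes is in the wider lists of the same segments. They were picked from 25917 genes tested, and the points share the depth of their library and the many genes at or near 0.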

How the data were processed

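Poly(A) RNA of the isolated cells was copied and amplified as full-length cDNA, and single-end reads of 50 bases were sequenced. Per the submitters' processing notes the authors used Trim Galore 0.6.4 and Salmon 1.0.0 on mm10. The values deposited are estimated counts for each transcript, without normalization. The authors deposited TPM and effective lengths as well, used here for levels between genes and for an offset. Whether counting used strand is not given in the sources used here.

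Each library had 2 files, whose estimated counts were added and rounded. Their totals differed by at most 0.492%, and for genes of 100 to 1000 reads their median squared standardized difference was 0.0122 to 0.0706 (0.455 for independent reads), so they counted as 1 library. Of 140748 transcripts, 139864 were matched to genes by Gencode M21 of GRCm38, where the study names M23, and the others held 0.139% to 0.255% of reads. The depth was 20881334 to 51624602 reads per library, and the floor of 3 reads covers counting error only.

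CPM used TMM library sizes over all 21 libraries. Comparisons used edgeR 4.0.16 (R 4.3.3, limma 3.58.1) with a quasi-likelihood F test, filterByExpr, 1 mean per group and Benjamini-Hochberg adjustment over 25917 genes in TECs, 25002 in PMNs and 31769 in the fit of all libraries, at a threshold of 0.05. The SE is the size of the log2 fold change divided by the square root of F. Sex-chromosome and mitochondrial genes were left out, as in the study. DESeq2 1.42.0, with and without apeglm 1.24.0, and the other alternatives are in the closing section. The scripts were tested on simulated counts.

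The members and the lists were chosen with earlier results of these data known. All 10 members are named with their values. Test results are given for each of them between IRI and sham TECs and between TECs and PMNs, and elsewhere for the member with the smallest p. Of the wider lists, up to 4 genes each with an adjusted p under 0.05 are named, and where none passed, the gene with the highest level. For each member with a mean of at least 1 CPM in TECs, the 2 other genes of highest correlation are named, apart from 1 gene that is not reported here.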

Additional observations from a re-analysis of the deposited data

How the results depend on the processing

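The number of the 10 genes called was 0 in all 11 comparisons and stayed 0 with DESeq2's size factors, each file alone, robust dispersions, the length offset, and genes of sex chromosomes and mitochondria added. It also stayed 0 with the compared groups alone (6 comparisons) and with control or RIPC groups alone (2 comparisons). With no filter on low counts it was 4 for TECs between IRI and sham (1289 of 39528 genes called) and 3 for PMNs between IRI and sham (971 of 38823). It was 1 for RIPC in TECs after IRI (71 of 39528) and 1 for the TEC interaction (84 of 39528). In PMNs it was 1 for RIPC after sham (139 of 38823) and 1 after IRI (18 of 38823). For TECs against PMNs after IRI it was 1 (1763 of 43623). DESeq2's Wald test gave 4 for TECs between IRI and sham, for RIPC in TECs after IRI and for TECs against PMNs after IRI. It gave 2 for the TEC interaction. It gave 1 for RIPC in PMNs after IRI, for TECs against PMNs after sham and for the added contrast of contrasts. Its all-gene shares stand with each comparison above. With apeglm, run for the 4 comparisons of RIPC and control, the number was 1 for RIPC in TECs after IRI (219 of 39528 genes called). Requiring at least 10 reads in every library left 3 of the 10 genes in the fit of all libraries. Of these, 1 was called in TECs against PMNs after sham (807 of 4319 genes called) and 1 after IRI (790 of 4319). The cause of these differences was not tested.

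Leaving out 1 library from a group of 3 gave 0 to 2 calls for TECs between IRI and sham. Slc12a1 and Slc12a3 were called without IRI RIPC replicate 2 (458 of 24863 genes called). Slc12a3 and Kcnj1 were called without IRI RIPC replicate 3 (714 of 25117). With all libraries 363 of 25917 genes were called. For TECs against PMNs after IRI, such omissions gave 0 to 1 calls. Calb1 was called without PMN IRI RIPC replicate 3 (774 of 31327 genes called, against 847 of 31769 with all libraries). Calls are not given where a group of 2 was left with 1 library, and the fitted values below cover every library left out. Fitted values turned for Umod between IRI and sham TECs (-1.27 to 0.09) and for RIPC in sham TECs (-1.73 to 0.42), and for Kcnj1 for RIPC in sham PMNs (-10.11 to 6.53). Between TECs and PMNs after sham they spanned -2.18 to 1.65 for Umod, -1.33 to 1.36 for Slc12a1, -1.12 to 2.05 for Calb1, -2.32 to 4.75 for Hsd11b2, -3.41 to 4.25 for Slc4a1 and -5.26 to 4.15 for Cldn8. After IRI they spanned -0.26 to 1.55 for Umod, -0.87 to 1.41 for Slc12a1, -10.14 to 0.16 for Kcnj1, -5.58 to 2.94 for Slc12a3, -5.85 to 2.68 for Aqp3 and -5.05 to 1.56 for Slc4a1. Other reversals were Aqp2 between IRI and sham TECs with RIPC groups alone (0.87) and Slc4a1 between TECs and PMNs after sham with DESeq2's size factors (0.02), genes of sex chromosomes and mitochondria (0.14), the length offset (0.37) and the Wald test (0.02).

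The replicate numbers did not pair the libraries, as the correlation of same-numbered libraries was -0.106 to 0.139 in TECs and -0.0234 to 0.0304 in PMNs. With the replicate number as a block, 1 of the 10 genes, Slc12a3, was called for TECs between IRI and sham, and all-gene calls went from 363 to 404 there and from 104 to 23 between IRI and sham PMNs. DESeq2's size factors moved the median of all genes from 0.15 to 0.28 between IRI and sham TECs. In TPM, 3 of the 10 genes had a higher median in PMNs than in TECs, and in CPM 4. Differences in genes at or near 3 reads were not detectable at this depth.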
